A study of Nannospalax ehrenbergi and Mus musculus with 25 samples.

Results

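Hyaluronan is a long unsulfated sugar chain of the extracellular matrix (ECM), and heparan sulfate is a sulfated chain carried by cell surface and basement membrane proteins. The 10 genes described here make, cut or bind the first, or cut the second. They were chosen by name and are rows of both deposited count tables, where 14769 gene names are shared between 27988 Spalax and 47593 mouse rows. They comprise the hyaluronan synthases Has1, Has2 and Has3, the hyaluronidases Hyal1, Hyal2 and Hyal3, the hyaluronan depolymerising protein Cemip, the hyaluronan receptor Cd44, the heparanase Hpse and its relative Hpse2.

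RNA-seq was performed on neck tissue of the blind mole rat Spalax, a long-lived subterranean rodent, and of C57BL/6 mice. Treated animals had received a single subcutaneous dose of the carcinogen 3-methylcholanthrene (3MCA), 1 mg in 500 µl for Spalax and 200 µg in 200 µl for mice, and tissue came from the injected side (IS) or the uninjected side (UIS). In total 25 libraries were compared, 16 of Spalax and 9 of mouse, and the comparisons asked how tumors, muscle beside tumors, muscle that resisted 3MCA and untreated muscle differ in these genes.

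The Spalax control group holds 4 untreated females (animals 1042, 1075, 2095 and 6038). The Spalax tolerant group holds IS muscle of 4 injected animals without a tumor, males 2251 and 2261 at 18 months after injection, male 2218 at 30 months and female 2375 at 30 months. All further times also run from the injection. Granulomas, benign fibrotic lesions, were sampled with their UIS from females 600 at 14 months and 976 at 16 months. Fibrosarcomas were sampled with their UIS from female 2240 at 18 months and male 2230 at 30 months. The mouse groups are 3 untreated males (1, 2 and 5) and the IS and UIS of 3 males with fibrosarcoma, 1019 at 14 weeks, 1023 at 12 weeks and 512 at 11 weeks. Spalax were wild-caught animals of about 2 years or of 10 years and more by the series' design, which does not give the age of each, and mice were 3 to 4 months old. These Spalax ages are not exact, since the paper could only estimate a span of 2 to over 10 years for the treated animals. Each Spalax tumor type therefore rests on 2 animals.

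Hyaluronan is made at the plasma membrane by the Has enzymes, which extrude the growing chain out of the cell. Hyal2 at the cell surface and Hyal1 in the lysosome cut it down, Cemip depolymerises it outside lysosomes, and Cd44 ties it to the cell. Heparanase is the endoglycosidase that trims heparan sulfate and so loosens basement membranes, while Hpse2 lacks that activity and can inhibit it. Spalax is known for long hyaluronan chains and for a splice form of heparanase that hinders matrix degradation. Values per gene do not tell splice forms or chain lengths apart.

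Libraries held 17025447 to 23386729 recovered reads in Spalax and 22143060 to 31179183 in mouse. The labels call all tissue muscle. The summed level of the muscle markers (7 of 10 in the Spalax table, 10 of 10 in mouse) was 805654 to 2989026 in the Spalax muscle libraries and 1078284 to 4057252 in those of mouse, but 393 to 5990 in the 4 Spalax IS libraries and 182 to 58414 in the mouse IS libraries. Fibroblast markers (8 of 8 in both tables) summed to 14149 to 40778 in Spalax UIS and 116762 to 1838226 in IS, and to 5101 to 29886 in mouse UIS and 143852 to 169171 in IS. Macrophage markers (7 of 8 in Spalax, 8 of 8 in mouse) summed to 1644 to 5464 in Spalax UIS and 11854 to 54763 in IS, and to 466 to 5648 in mouse UIS and 7922 to 34199 in IS. None of the genes on these lists was at 0 in all libraries of a group. Tumor and muscle thus differ in cell makeup along with each gene below, and its part in the results was not tested. In bulk tissue fewer cells of a type and less RNA per cell cannot be told apart. Among the tolerant libraries, 2251 stood apart, with 186713 for the fibroblast list against 8082 to 43414 in the other 3 and 22113 against 1548 to 6837 for the macrophage list, so comparisons with tolerant animals are given with and without it.

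All values below are normalised read counts, that is reads divided by 1 size factor per library, and fold changes are log2 differences of value + 1 from limma with their SE. A gene was called where p, adjusted by Benjamini-Hochberg over all genes tested, was 0.05 or less. Hyal3 and Hpse2 did not reach a value of 10 in enough libraries to be tested in any comparison, and Has1 and Cemip were below that filter among muscle libraries. P-values rest on the spread between the animals of a group, of which each holds 2 to 4. In limma this spread is moderated toward that of genes of like level. The main fits treat the IS and UIS of an animal as independent libraries, and only the fits with the animal as a block use the pairing.

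Has2, the main synthase of connective tissue, was higher in every tumor than in the same animal's UIS. Granuloma IS held 695 (animal 600) and 947 (976) where UIS held 39.8 and 4.71. Fibrosarcoma IS held 2004 (2240) and 898 (2230) where UIS held 24.3 and 22.8. In mouse the IS libraries held 1097 (1019), 1386 (1023) and 825 (512) and the UIS libraries 123, 4.13 and 2.88. Every IS library lay above every UIS library of its species. Has2 rose by 5.73 in granuloma (SE 1.02, limma adjusted p 0.0194), by 5.78 in fibrosarcoma (SE 0.50, limma adjusted p 0.00449) and by 6.32 in mouse (SE 1.30, limma adjusted p 0.0102). Control muscle gave 13.7 to 27.9 in Spalax and 16.3 to 28.4 in mouse, so UIS and control overlapped in both species. The mouse UIS of 1019 was the exception among muscle libraries of mouse and rested on 102 reads, against 4 and 2 reads in the other UIS libraries. The proliferation marker sum was 1368 in that library and 28.8 to 93.9 in the other UIS libraries.

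Has1, the synthase known as an inflammation and cytokine responsive form, was high in some tumors and not in others. Granuloma IS held 236 (600) and 59.2 (976), with 26.5 and 2.36 in UIS. Fibrosarcoma IS held 617 in animal 2230 but 10.5 in animal 2240, with 5.69 and 13.3 in UIS. Mouse IS held 85.3 (1019), 224 (1023) and 8.95 (512), against 13.3, 6.19 and 2.88 in UIS. Fibrosarcoma 2240 was the only tumor whose normalised Has1 was below that of its own UIS, though by a log2 difference of only -0.32. That difference rested on 17 reads in IS and 11 in UIS, so the 2 sides of this animal were not told apart. Fibrosarcoma 2240 had the highest Has2 of all Spalax libraries. By limma no contrast of IS with UIS called Has1, with differences of 3.64 in granuloma (SE 1.29, limma adjusted p 0.0961), 3.10 in fibrosarcoma (SE 2.01, limma adjusted p 0.282) and 2.97 in mouse (SE 1.19, limma adjusted p 0.0818). With the animal as a block, which pairs both sides of an animal, Has1 passed in granuloma (adjusted p 0.0366) and mouse (adjusted p 0.0408). DESeq2 called it in granuloma, fibrosarcoma and mouse (adjusted p 0.0228, 0.00208 and 0.00268), and of these 3 contrasts edgeR called it only in mouse (adjusted p 0.0437). The fibrosarcoma difference rested on animal 2230, since it was 0.23 without IS 2230 and 5.98 without IS 2240, each with a single IS library left. That of mouse was 1.99 without IS 1023 (limma adjusted p 0.223) and 4.24 without IS 512 (limma adjusted p 0.0128).

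Has3, which makes hyaluronan in epithelia and other tissues, went the other way in Spalax. Granuloma IS held 12.3 (600) and 2.42 (976) and UIS 25.3 and 21.2. Fibrosarcoma IS held 2.46 (2240) and 4.80 (2230) and UIS 36.4 and 39.8. The IS libraries of Spalax rested on 4 to 17 reads. Has3 fell by 3.12 in fibrosarcoma (SE 0.55, limma adjusted p 0.0175), and granuloma gave -1.84 (SE 0.97, limma adjusted p 0.211). Mouse IS held 45.0, 32.6 and 24.2 and mouse UIS 61.7, 36.1 and 30.2 in 1019, 1023 and 512, a difference of -0.30 (SE 0.48, limma adjusted p 0.638) that became 0.74 when libraries were scaled by total reads. In each of the 7 tumor-bearing animals Has3 was lower in IS than in UIS. The 4 Spalax controls spread from 2.49 to 30.9, so the low IS values of Spalax are also found in untreated muscle.

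**Figure D1:**
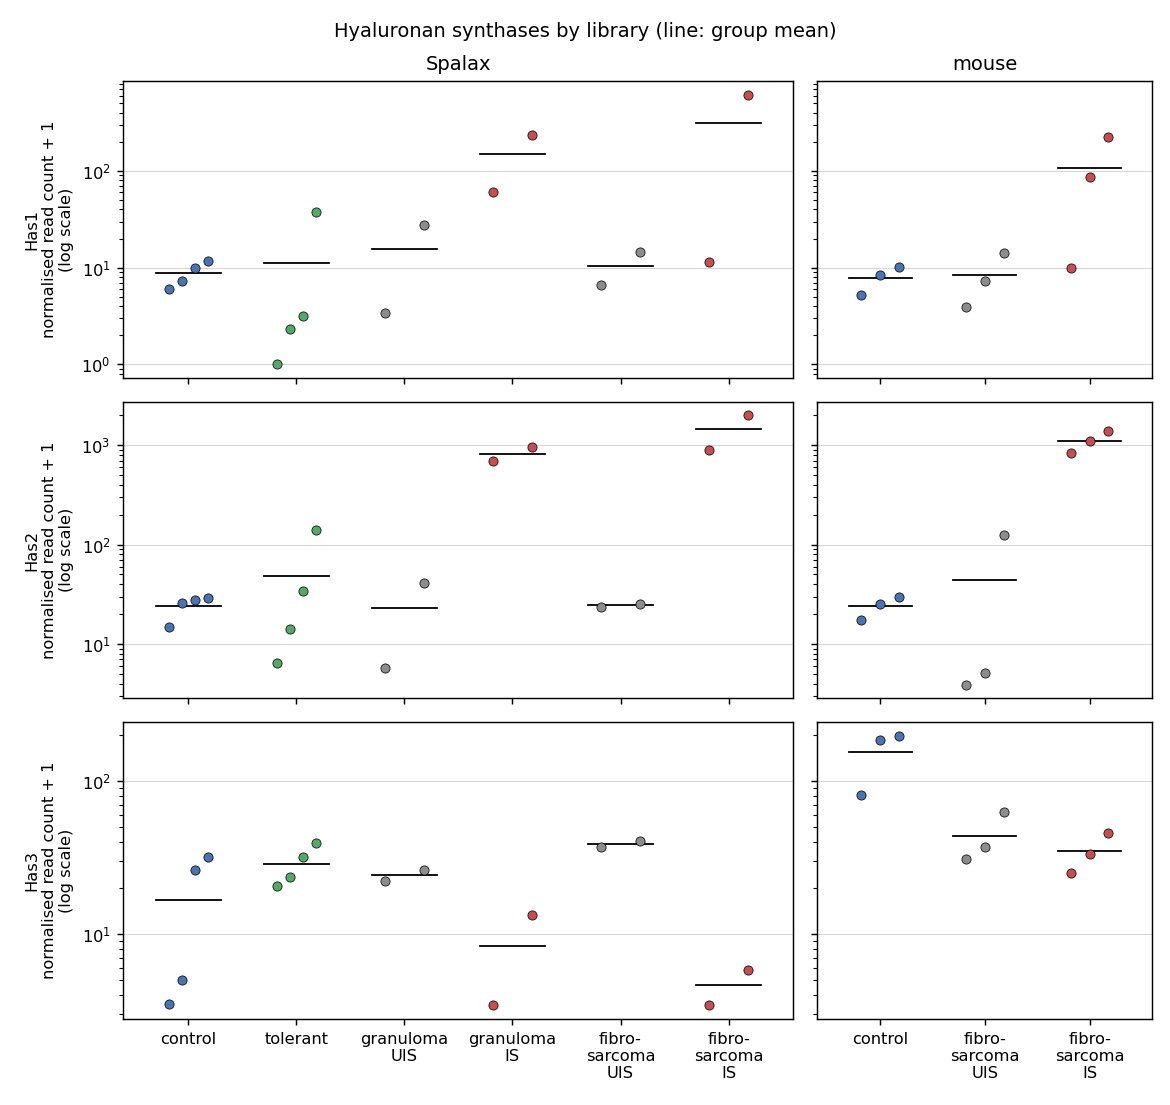
Normalised read count + 1 (log axis) of Has1, Has2 and Has3 in each library, by group, for Spalax (left) and mouse (right). Points are libraries and lines are group means; all IS points of Has2 lie at or above 695 and all muscle points at or below 139, while Has1 splits within the fibrosarcoma IS groups and Has3 is lowest in Spalax IS.

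Of the reads of the 3 synthases, Has2 made up 59.1% (95% Wilson interval 57.2 to 61.0) to 99.4% (99.0 to 99.6) in Spalax fibrosarcoma IS and 73.7% to 93.9% in granuloma IS, against 32.8% to 33.3% and 16.7% to 43.4% in their UIS. It was 40.0% to 73.5% in Spalax control and 14.8% to 64.9% in tolerant muscle, so the Has2 share of Spalax tumors overlapped that of muscle. Has1 made up 40.6% of synthase reads in fibrosarcoma 2230 and 25% in granuloma 600. Mouse IS lay at 84.4% to 96.1%, mouse control at 10.4% to 15.7%, and mouse UIS at 8% to 62.2%. The Has3 share was 77.2% to 85.7% in mouse control but 11.1% to 46.7% in Spalax control, which are 3 and 4 animals whose gene models differ. In other Spalax muscle it was 17.9% to 85.2% (tolerant), 27.6% to 75.0% (granuloma UIS) and 49.2% to 58.3% (fibrosarcoma UIS). Mouse UIS gave 31.1% to 84.0%, so over all muscle the Has3 shares of the species overlapped. In Spalax IS it was 0.122% to 1.31%. The intervals cover counting error only, since reads carry no molecular identifiers, and shares between genes also carry their unequal lengths. Divided by exon length in mouse, Has2 reached 260 ± 66.3 per kb in IS (SD, n = 3), Has1 23.5 ± 24.2 and Has3 5.32 ± 1.64. In mouse control the order was Has3 with 24.2 ± 10.2 per kb (SD, n = 3), Has2 with 5.41 ± 1.44 and Has1 with 1.52 ± 0.537. Per length the ranges of these genes did not overlap in control.

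**Figure D2:**
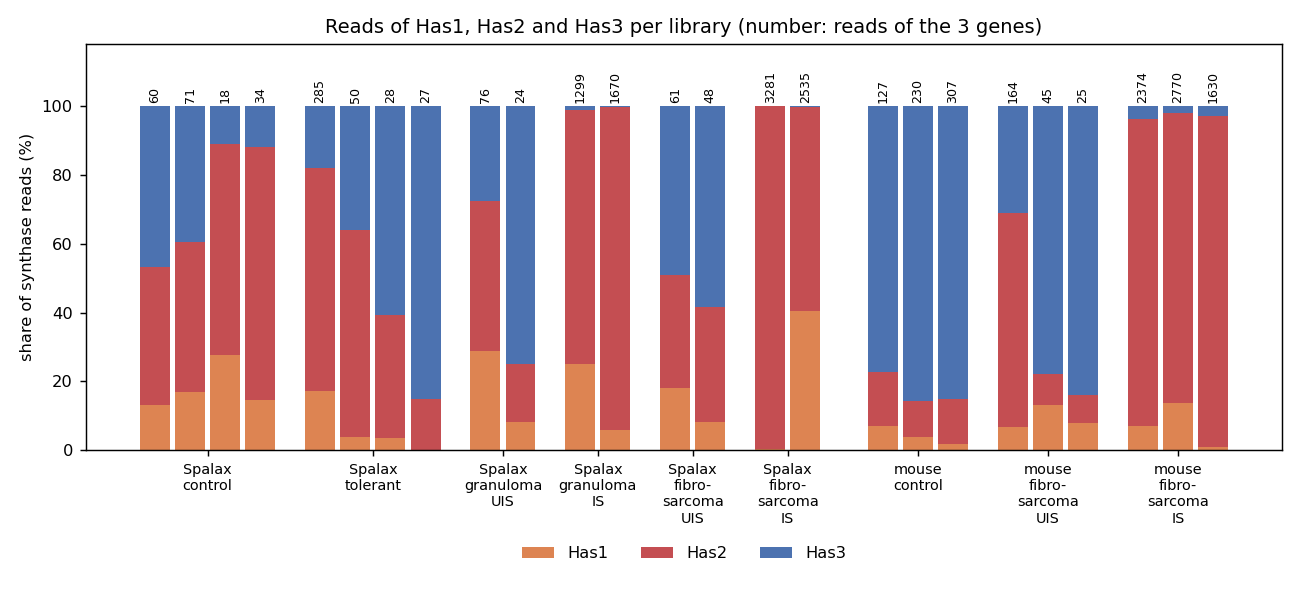
Share in % of the reads of Has1, Has2 and Has3 in each library, 1 bar per library, grouped and with the number of synthase reads above the bar. Has2 (red) fills 59.1% to 99.4% of every IS bar, and Has3 (blue) is the largest part in mouse control.

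Cemip, which binds hyaluronan and depolymerises it outside lysosomes, was close to absent from muscle and present in every tumor. It held 934 (600) and 178 (976) in granuloma IS and 0 and 2.36 in UIS. Fibrosarcoma IS held 158 (2240) and 33.6 (2230), and UIS 2.43 and 1.42. Mouse IS held 72.4 (1019), 142 (1023) and 340 (512), and mouse UIS 4.84, 1.03 and 0. No IS library overlapped any muscle library of its species. Cemip rose by 7.80 in granuloma (SE 1.14, limma adjusted p 0.0127), by 4.69 in fibrosarcoma (SE 0.90, limma adjusted p 0.0211) and by 6.07 in mouse (SE 0.86, limma adjusted p 0.00348). The UIS groups held 2, 3 and 5 reads in all, so the ratio itself is loose. It was 437 in granuloma (95% exact counting interval 121 to 3613), 48.4 in fibrosarcoma (16.4 to 236) and 92.5 in mouse (39.5 to 286). These intervals pool the reads of a group and cover counting error only, not the spread between animals. Control muscle gave 0 to 3.98 in Spalax and 0.815 to 7.80 in mouse.

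Hyal1, the lysosomal hyaluronidase, was lower in Spalax tumors. Granuloma IS held 261 (600) and 116 (976) and UIS 293 and 389. Fibrosarcoma IS held 176 (2240) and 111 (2230) and UIS 395 and 414. Hyal1 fell by 1.52 in fibrosarcoma (SE 0.37, limma adjusted p 0.0370), and granuloma gave -0.95 (SE 0.57, limma adjusted p 0.261). With the animal as a block the fibrosarcoma call was lost (adjusted p 0.0552), and scaled by total reads it was -0.72 (adjusted p 0.165) where the median of all genes moved up by 0.80. Mouse IS held 38.3, 42.1 and 52.1 and mouse UIS 25.4, 52.6 and 38.9 in 1019, 1023 and 512, a difference of 0.22 (SE 0.45, limma adjusted p 0.706) that was -0.05 without the UIS of 1019. The mouse count of Hyal1 is uncertain, as 51.9% of its exon bases lie under exons of Hyal3 and Naa80 on the same strand.

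Hyal2, the hyaluronidase anchored at the cell surface, was called in no contrast of IS with UIS. It was 529 to 548 in granuloma IS and 326 to 462 in UIS, 356 to 493 in fibrosarcoma IS and 630 to 668 in UIS, and 324 to 428 in mouse IS and 225 to 402 in UIS. Granuloma gave 0.47 (SE 0.39, limma adjusted p 0.403), fibrosarcoma -0.63 (SE 0.29, limma adjusted p 0.151) and mouse 0.31 (SE 0.32, limma adjusted p 0.462). The sign in fibrosarcoma flipped to 0.17 under scaling by total reads, where mouse was called at 1.37 (limma adjusted p 0.0205) against a median of 1.16 for all genes. Without fibrosarcoma IS 2240, which leaves a single IS library, the fibrosarcoma difference was -0.87. Divided by exon length, Hyal2 was the highest hyaluronidase of mouse control muscle with 156 ± 5.89 per kb (SD, n = 3), against 45.6 ± 13.2 for Hyal1 and 2.69 ± 1.30 for Hyal3. The distance to Hyal1 is uncertain, as 51.9% of the Hyal1 exon bases lie under other genes on the same strand.

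Hyal3, a hyaluronidase family member with weak known activity, was at 0 to 11.8 in Spalax and 2.97 to 8.64 in mouse, on at most 13 reads in any library. Granuloma IS held 9.44 (600) and 1.81 (976) and UIS 1.21 and 11.8, which is opposite in the 2 animals. In mouse IS it was 2.97 to 4.65, on 5 to 9 reads, and in UIS 4.84 to 8.64, on 4 to 8 reads. These ranges did not overlap, as for 60.2% of the genes tested in mouse. Hyal3 was below the filter and was not tested in the main fits, and 8.16% of its exon bases lie under Hyal1 and Naa80.

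**Figure D3:**
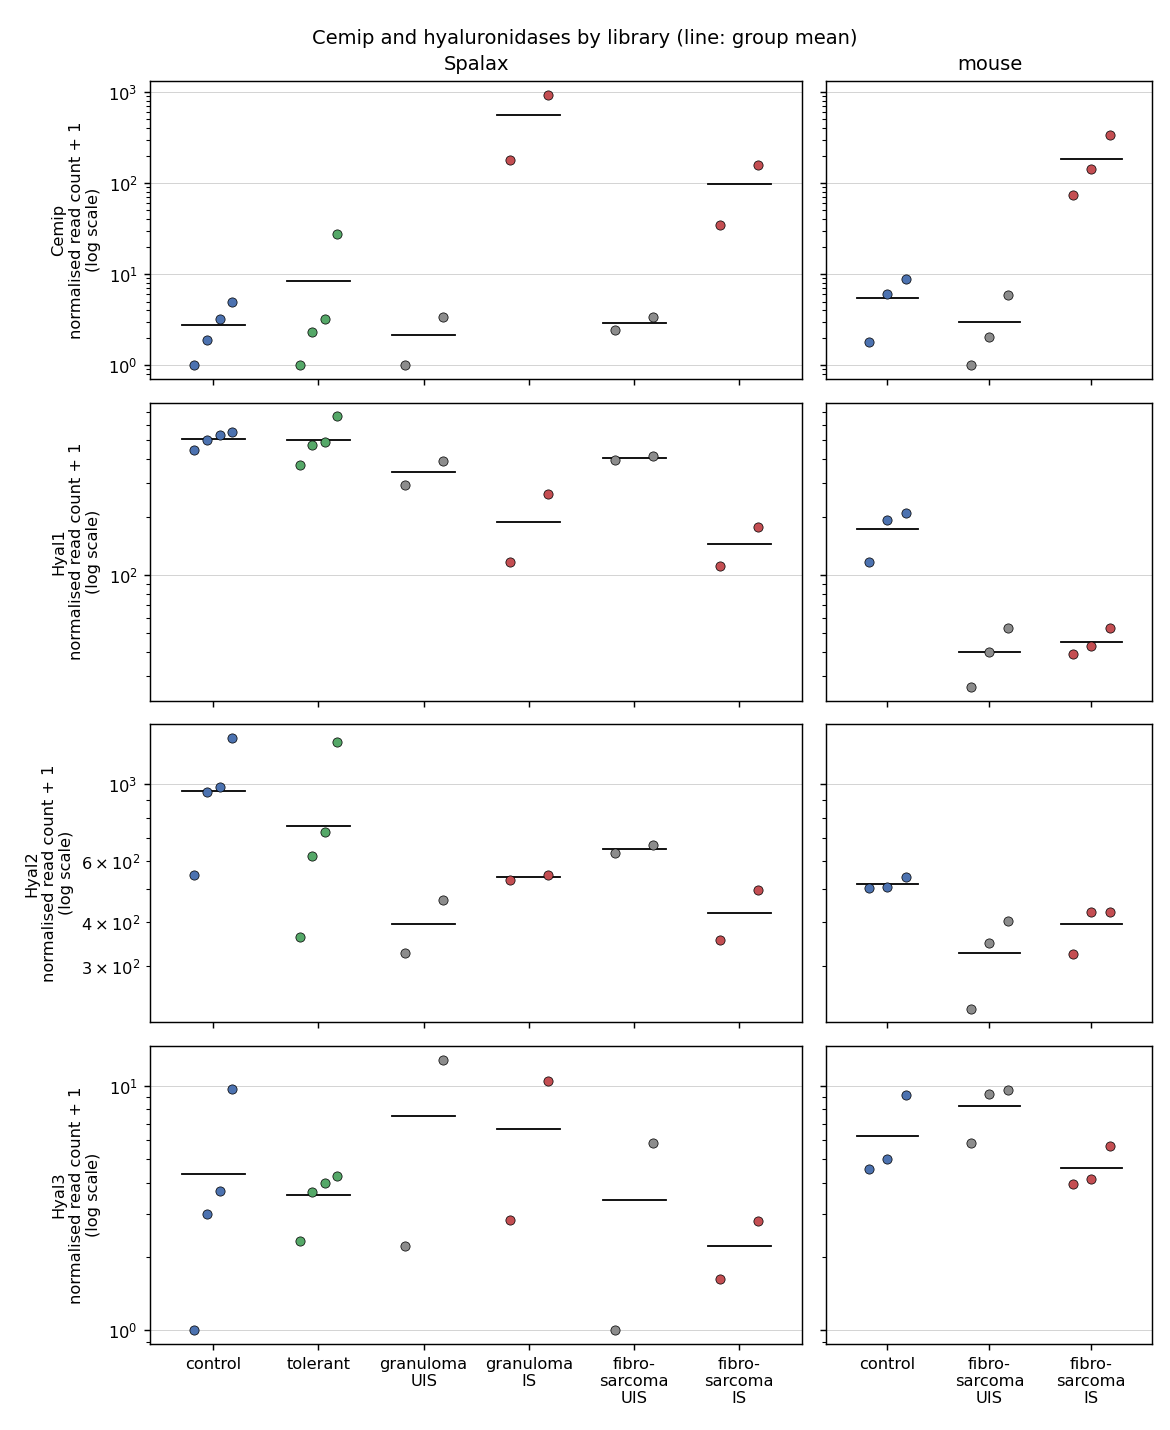
Normalised read count + 1 (log axis) of Cemip, Hyal1, Hyal2 and Hyal3 in each library by group, Spalax left and mouse right, lines being group means. Cemip IS points lie at 33.6 or more against 26.3 or less in all muscle, Hyal1 is lower in Spalax IS than in all Spalax muscle and lower in mouse UIS and IS than in mouse control, and Hyal2 spans 225 to 1357 in all libraries.

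Cd44, the principal hyaluronan receptor of the cell surface, was abundant in all muscle and higher in all tumors. Granuloma IS held 8135 (600) and 12763 (976) and UIS 1124 and 1414. Fibrosarcoma IS held 17728 (2240) and 4600 (2230) and UIS 1016 and 820. Mouse IS held 5936 (1019), 6757 (1023) and 9271 (512) and UIS 1013, 498 and 160. The groups did not overlap. Cd44 rose by 3.01 in granuloma (SE 0.39, limma adjusted p 0.00995), by 3.30 in fibrosarcoma (SE 0.69, limma adjusted p 0.0256) and by 4.05 in mouse (SE 0.65, limma adjusted p 0.00479). Divided by exon length it was the highest of the 10 genes in mouse IS with 1080 ± 256 per kb (SD, n = 3), while in mouse control it held 56.4 ± 22.9 per kb and lay below Hyal2.

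Hpse, heparanase, was low in muscle and higher in every tumor than in the same animal's UIS. Granuloma IS held 43.6 (600) and 142 (976) and UIS 20.5 and 8.24. Fibrosarcoma IS held 467 (2240) and 188 (2230) and UIS 23.0 and 17.1. Mouse IS held 499 (1019), 336 (1023) and 175 (512) and UIS 58.0, 25.8 and 17.3. Both granulomas lay below both Spalax fibrosarcomas, and granuloma 600 lay within the range of Spalax control (8.73 to 44.0). The tables of Spalax and mouse were normalised separately, so levels were not compared across species. Hpse rose by 3.83 in fibrosarcoma (SE 0.61, limma adjusted p 0.0138) and by 3.34 in mouse (SE 0.61, limma adjusted p 0.00719), while granuloma gave 2.50 (SE 0.92, limma adjusted p 0.104) and was called by DESeq2 (adjusted p 0.0274) and with 1 model over all libraries (adjusted p 0.0399). The rise was 1.33 larger in fibrosarcoma than in granuloma, a difference that was not called (SE 1.16, limma adjusted p 0.946).

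Hpse2, the heparanase relative without enzyme activity, was listed at 0 to 2.43 in Spalax, on 0 to 3 reads per library, and in mouse at 0 in 8 libraries and at 0.5263 (1 read) in IS 512. In the mouse control and UIS libraries 0 reads were found. Hpse2 was below the filter, so the main fits did not test it.

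**Figure D4:**
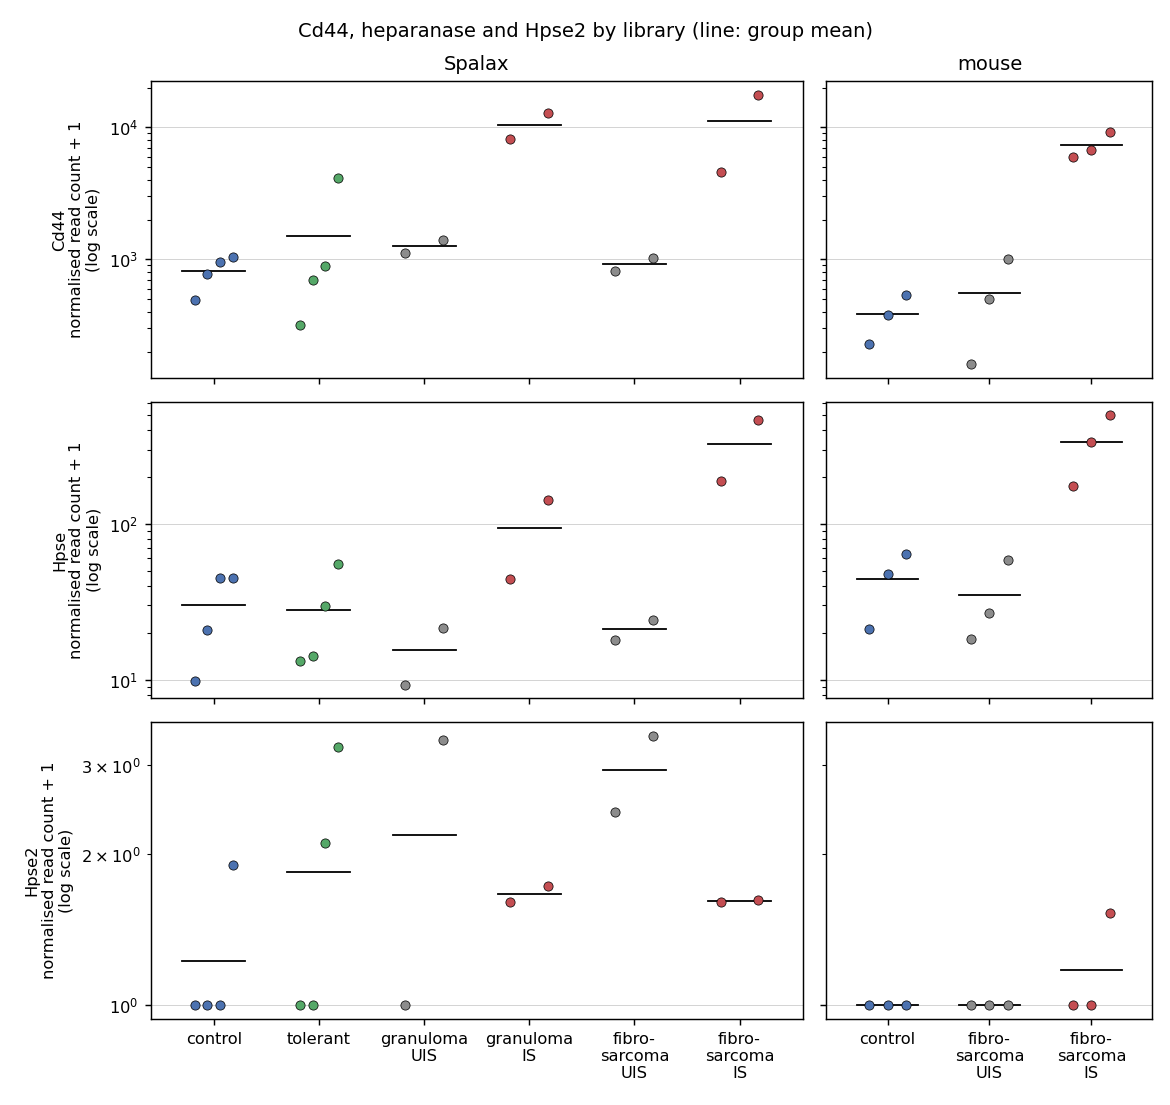
Normalised read count + 1 (log axis) of Cd44, Hpse and Hpse2 in each library by group, Spalax left and mouse right, lines being group means. Cd44 IS points span 4600 to 17728 and tolerant 2251 at 4113 is the highest muscle point; Hpse2 never exceeds 2.43.

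Counted over the list, granuloma IS against UIS called 3 of the 8 tested genes, all higher (Has2, Cemip and Cd44), where 11.7% of 14735 genes were called higher and 12.6% lower. The libraries did not overlap in 8 of 8, against 69.8% of all genes tested. Fibrosarcoma called 4 higher and 2 lower, where 17.4% of 14696 genes were higher and 19% lower, and 7 of 8 did not overlap, against 74.3%. Mouse called 4 higher and 0 lower, where 22.8% of 15220 genes were higher and 22.3% lower, and 4 of 8 did not overlap, against 60.2%. The median difference of the tested genes was 2.76, 3.20 and 3.15, beside -0.01, 0.03 and 0.11 for all genes. These medians leave out Hyal3 and Hpse2, and Cemip passed the filter through its IS libraries only. Without the filter the median over all 10 genes was 1.49, 1.46 and 1.64. With 2 animals a group these calls hang on single libraries, the remaining one being taken to vary like the other group. In granuloma 0 of 8 were called without IS 600 or without IS 976, where 1.52% and 0.665% of all genes were called, and 2 without UIS 976, where 8.08% were. In fibrosarcoma 0 were called without UIS 2240 or without UIS 2230, as for 0% of all genes, and 8 without IS 2240, where 57.1% were.

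With both Spalax tumor types in 1 fit and tumor type as a covariate, 4 IS and 4 UIS libraries entered. Has2, Cemip, Cd44 and Hpse were called higher, with differences of 5.76, 6.24, 3.16 and 3.17 and limma adjusted p of 0.000152, 0.000838, 0.000407 and 0.00251. Has3 and Hyal1 were called lower, at -2.48 (SE 0.58, limma adjusted p 0.00795) and -1.24 (SE 0.34, limma adjusted p 0.0162). Among all 14431 genes 25.5% were higher and 25.9% lower. Has1 gave 3.37 (SE 1.25, limma adjusted p 0.0518) and passed with the animal as a block (adjusted p 0.0384). It also passed by edgeR (adjusted p 0.0281), by DESeq2 (adjusted p 0.000323) and by limma with 1 model over all libraries (adjusted p 0.032). Hyal2 gave -0.08 (SE 0.29, limma adjusted p 0.839), which turned to 0.69 under scaling by total reads and to 0.01, 0.05 and 0.12 without UIS 2240, UIS 2230 and IS 2230. Scaled by total reads Has1 passed (4.10, adjusted p 0.022) and Hyal1 did not (-0.47, adjusted p 0.24). The Hyal1 call was lost without fibrosarcoma UIS 2240 (adjusted p 0.0537) and without UIS 2230 (adjusted p 0.0555), while Has1 passed without IS 2240 (4.57, adjusted p 0.00696) and was 2.27 without IS 2230 (adjusted p 0.12). Counted by animal over both species, Has2, Cemip, Cd44 and Hpse were higher in IS in 7 of 7 animals and Has1 in 6 of 7, with log2 differences of 3.14 to 8.08, 3.65 to 9.87, 2.49 to 5.85, 1.05 to 4.28 and -0.32 to 6.53.

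**Figure D5:**
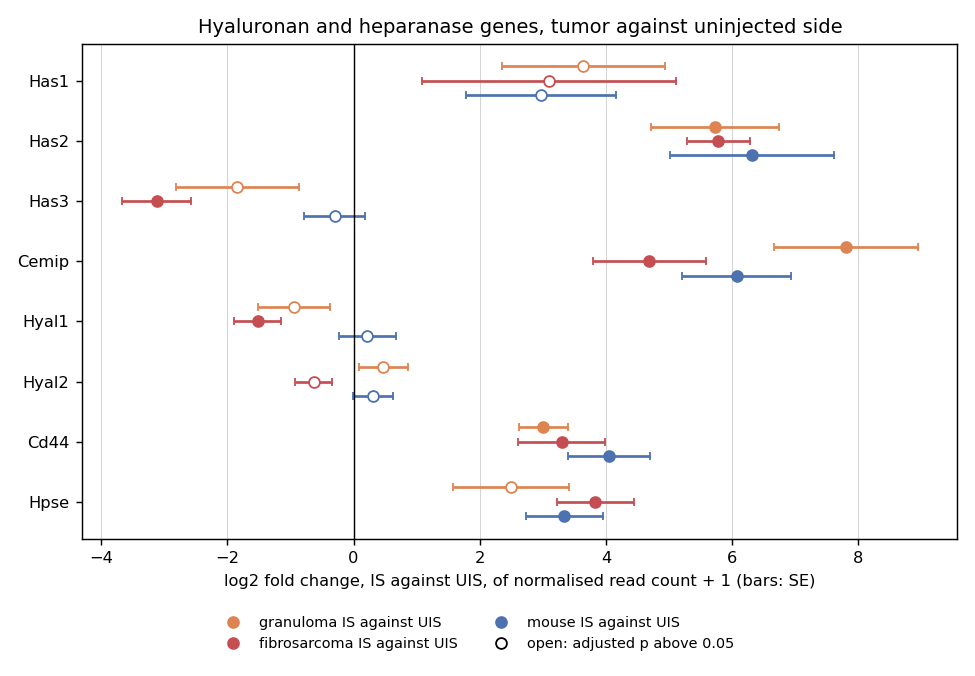
Log2 fold change of value + 1, IS against UIS, with SE bars, for the 8 tested genes in granuloma, fibrosarcoma and mouse. Filled points have an adjusted p of at most 0.05 and open points do not; Has2, Cemip and Cd44 are filled in all 3, and Has3 and Hyal1 are filled and below 0 in Spalax fibrosarcoma and open in the others. Their difference between species was not called by limma but was by DESeq2.

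Whether tumor types or species differ in these changes was tested by interaction. Between fibrosarcoma and granuloma limma called 0 of 8 genes, as it did for 0% of 15584 genes, and at an unadjusted p under 0.05 it had 1 of 8 (Hyal2, -1.10, SE 0.46), where 4.92% of all genes had one. DESeq2 called 0 of 8, against 0.565% of genes, and edgeR called 0. The Cemip rise was 3.11 smaller in fibrosarcoma (SE 1.61, limma adjusted p 0.946). Between Spalax fibrosarcoma and mouse fibrosarcoma limma called 0 of 8, while 4.55% of 12816 genes passed. At an unadjusted p under 0.05 it had 2 of 8, Has3 and Hyal1, against 22.7% of genes. Has3 differed by -2.83 (SE 0.79, limma adjusted p 0.079) and Hyal1 by -1.75 (SE 0.66, limma adjusted p 0.157), both lower in the Spalax contrast. DESeq2 called these 2 (adjusted p 0.0105 and 0.036), against 14.8% of genes, and edgeR called 0. For Has2 the difference between species was -0.54 (SE 1.81), for Cd44 -0.75 (SE 1.07) and for Hpse 0.50 (SE 0.97), each smaller than its SE.

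Muscle beside a tumor was compared with untreated muscle to ask whether the uninjected side differs. In Spalax limma called 0 of 6 tested genes, as for 0% of 13909. At an unadjusted p under 0.05 it had 2 of 6, against 16.6% of genes, DESeq2 called 0 of 6 against 3.71%, and edgeR called 0. These 2 were Hyal1, with 293 to 414 in UIS and 444 to 548 in control (-0.45, SE 0.19, limma adjusted p 0.276), and Hyal2, with 326 to 668 in UIS and 545.5 to 1357 in control (-0.86, SE 0.32, limma adjusted p 0.248). Only Hyal1 did not overlap between the groups, 1 of 6, against 12.7% of genes. Cd44 was 820 to 1414 in UIS and 495 to 1047 in control (0.45, SE 0.27, limma adjusted p 0.419). Controls carried dual and UIS libraries single sequencing indexes, so the kind of index and the group cannot be told apart.

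In mouse, Hyal1 was 25.4 to 52.6 in UIS and 115.5 to 209 in control, and Has3 was 30.2 to 61.7 against 79.9 to 198. Hyal2 was 225 to 402 in UIS and 502 to 538 in control. These 3 genes were lower in every UIS library than in every control, 3 of 6 tested genes, against 21.2% of all genes. Hyal1 differed by -2.13 (SE 0.42, limma adjusted p 0.293), Has3 by -1.79 (SE 0.48, limma adjusted p 0.39) and Hyal2 by -0.71 (SE 0.29, limma adjusted p 0.452). Limma called 0 of 6, as for 0% of 14792 genes, had 3 of 6 at an unadjusted p under 0.05 against 11% of genes, and edgeR called 0. DESeq2 called 2 of 6, Hyal1 (adjusted p 0.00134) and Has3 (adjusted p 0.0254), against 2.31% of genes. The 5 adipocyte markers, all in the table and none at 0 throughout a group, summed to 86872 to 130809 in mouse control and 7057 to 75734 in UIS, and the part of that difference in these values was not tested. Has2 in this comparison was -0.79 (SE 1.26) and turned to 0.11 without UIS 512, to 0.92 by edgeR.

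Injected muscle without a tumor was compared with untreated muscle. Limma called 0 of 6 tested genes, as for 0% of 14020, with 0 of 6 at an unadjusted p under 0.05 against 5.23% of genes. DESeq2 called 0 of 6 against 0.428%, and edgeR called 0. Library 2251 held 4113 for Cd44, 139 for Has2, 36.8 for Has1, 26.3 for Cemip and 54.1 for Hpse, the highest of all Spalax muscle libraries for each. The other 3 tolerant libraries held 316 to 898 for Cd44, 5.36 to 32.9 for Has2, 0 to 2.19 for both Has1 and Cemip, and 12.1 to 28.5 for Hpse. With 2251, Has2 and Cd44 gave 0.13 (SE 0.84, limma adjusted p 0.992) and 0.27 (SE 0.65, limma adjusted p 0.974), and without it both signs turned, to -0.69 and -0.43 (limma adjusted p 0.921 and 0.92). Has3, Hyal2 and Hpse gave 1.35, -0.42 and -0.11 with it and 1.18, -0.45 and -0.52 without it. Hyal1 was 372 to 664 in tolerant and 444 to 548 in control, with a difference of -0.05 (SE 0.21, limma adjusted p 0.986) that was -0.19 without 2251, and its sign changed in other settings. Has3 was 19.7 to 38.3 in tolerant and 2.49 to 30.9 in control. All controls are female and 3 of the 4 tolerant animals male, so sex is not balanced here.

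Tumors and tolerant muscle are both from the injected side. Between the 4 Spalax IS and the 4 tolerant libraries 5 genes were higher (Has1, Has2, Cemip, Cd44 and Hpse) and 2 lower (Has3 and Hyal1) of 8 tested, where 22.4% of 14578 genes were higher and 24% lower. Has2 rose by 5.35 (SE 0.85, limma adjusted p 0.00128), and Has1 by 4.62 (SE 1.41, limma adjusted p 0.0251). Cemip rose by 5.53 (SE 1.19, limma adjusted p 0.00555). Cd44 rose by 3.33 (SE 0.73, limma adjusted p 0.00604) and Hpse by 2.72 (SE 0.75, limma adjusted p 0.0169). Hyal1 fell by 1.64 (SE 0.34, limma adjusted p 0.0044) and Has3 fell by 2.34 (SE 0.57, limma adjusted p 0.00983). Without tolerant 2251 all 7 remained called, with 6.17 for Has2, 5.68 for Has1, 6.48 for Cemip, 4.04 for Cd44, 3.13 for Hpse, -2.18 for Has3 and -1.49 for Hyal1 (limma adjusted p 0.000106, 0.00595, 0.00115, 0.000391, 0.00911, 0.0184 and 0.00814). The Has1 call was lost without tolerant 2261, 2218 or 2375, IS 600 or IS 2230 (adjusted p 0.0596 to 0.0684), and that of Hpse without tolerant 2218 (adjusted p 0.0515). Scaled by total reads Hyal1 was not called (-0.99, adjusted p 0.0637). Tumor libraries carried single and tolerant libraries dual indexes, which cannot be told apart from the groups. Sex is not balanced here either, with tumors from females 600, 976 and 2240 and male 2230. Tolerant muscle came from males 2251, 2261 and 2218 and female 2375. Times after injection were 14 to 30 months for tumors and 18 or 30 months for tolerant animals. The IS libraries also enter the comparisons with UIS, so the contrasts share them.

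Other genes of hyaluronan metabolism were counted from lists, and the genes named below had limma adjusted p of 0.00131 to 0.0442 where they are said to rise or fall. A contrast left out for a named gene was not called or not tested, which does not show that the gene was unchanged there. Their counts are to be read against the shares of all genes called, which were 11.7% higher and 12.6% lower in granuloma, 17.4% and 19% in fibrosarcoma, and 22.8% and 22.3% in mouse. Of 8 genes that supply precursors, granuloma and fibrosarcoma each called 2 higher and 0 lower and mouse called 3 higher and 3 lower, with medians of 0.43, 0.64 and 0.93 beside -0.01, 0.03 and 0.11 for all genes. Ugdh, which makes UDP-glucuronic acid, was higher in all 3, at 1915 to 2508 in granuloma IS against 482 to 521 in UIS, 1904 to 2327 against 724 to 811 in fibrosarcoma, and 1818 to 3229 against 145 to 426 in mouse, by 2.13, 1.46 and 3.19. Gfpt1, the entry enzyme of hexosamine synthesis, rose by 1.89 in granuloma and 1.21 in mouse, and fibrosarcoma gave 1.36 (limma adjusted p 0.0774). Gnpnat1 rose by 1.18 in fibrosarcoma and Pgm3 by 1.97 in mouse. Ugp2, which makes UDP-glucose and serves muscle glycogen too, fell by 4.56 in mouse, from 18880 to 89962 in UIS to 1107 to 1709 in IS, and Hk2 fell by 2.45.

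Of 18 genes of hyaluronan binding and cross-linking, 11 were tested in each Spalax contrast and 9 in mouse. Granuloma called 3 higher and 1 lower, fibrosarcoma 3 and 3, and mouse 1 and 3 (2 higher and 3 lower with the animal as a block), with medians of 0.95, -0.13 and -0.08. Tnfaip6, which loads heavy chains onto hyaluronan, rose by 5.33 in granuloma (1243 to 2544 in IS, 33.0 to 56.7 in UIS) and by 3.57 in fibrosarcoma. For Tnfaip6 mouse gave 2.30 (limma adjusted p 0.0759), and for Hapln4 it gave 2.41 (limma adjusted p 0.0708). Hapln4, a link protein known from brain, rose by 5.40 in granuloma, and Itih1 by 3.55 in fibrosarcoma on values of 37.8 to 45.5. Vcan, the large hyaluronan-binding proteoglycan versican, rose by 5.24 in granuloma, by 3.55 in fibrosarcoma and by 5.19 in mouse (5575 to 9919 in IS, 84.9 to 868.2 in UIS there). Itih4 fell by 5.23 in granuloma and fell by 6.56 in fibrosarcoma. Habp2 fell by 4.97 in mouse, where Hapln3 also fell by 2.04, and was called lower in fibrosarcoma, where it was listed at 0 in both IS libraries and at 10.9 to 11.4 in UIS.

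Of 8 further hyaluronan receptors, 4 were higher in each contrast and 0, 0 and 1 lower in granuloma (7 tested), fibrosarcoma (8) and mouse (8), with medians of 2.46, 1.97 and 1.43. Layn rose by 4.66 in granuloma (594 to 896 against 25.9 to 30.2), by 4.17 in fibrosarcoma and by 3.06 in mouse, and Tlr2, a pattern receptor of innate immune cells, by 4.54, 4.28 and 2.92. Hmmr, which is also a gene of dividing cells, rose by 3.81 in granuloma, by 4.62 in fibrosarcoma and by 6.38 in mouse (654 to 855 against 1.03 to 79.8), and Stab2, a clearance receptor of endothelium, fell by 4.74 in mouse. Proliferation markers (5 of 5 in both tables) summed to 5546 to 7079 in granuloma IS, 12373 to 12882 in fibrosarcoma IS and 12034 to 15725 in mouse IS, against 28.8 to 1423 in UIS of both species. Of the 9 listed genes of other hyaluronan degradation 4 were tested in each contrast, of which 1, 3 and 3 were higher and 0 lower, with medians of 1.56, 1.76 and 1.68. Gusb, the lysosomal beta-glucuronidase, rose by 2.95 in fibrosarcoma and 2.01 in mouse, and granuloma gave 2.47 (limma adjusted p 0.0546).

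For heparan sulfate, the chain that heparanase cuts, 15 core proteins were listed. Granuloma called 4 of 13 tested higher and 0 lower, fibrosarcoma 3 higher and 1 lower (4 and 2 with the animal as a block), and mouse 9 of 14 higher and 0 lower, with medians of 0.98, 1.17 and 1.72. Sdc1, syndecan 1, rose by 4.27 in granuloma (2114 to 2306 against 106 to 122), by 4.43 in fibrosarcoma (1445 to 3970 against 90.9 to 134) and by 3.70 in mouse. Col18a1, a basement membrane collagen, rose by 4.10 in granuloma, by 2.35 in fibrosarcoma and by 4.43 in mouse, Srgn by 2.89 in granuloma and 3.17 in fibrosarcoma, and Gpc6 by 3.77 in mouse. Gpc6 gave 3.09 in granuloma (limma adjusted p 0.084) and 1.96 in fibrosarcoma (limma adjusted p 0.447). Gpc4 fell by 2.66 in fibrosarcoma and rose by 1.67 in mouse, and the interaction with species is not reported for this gene here.

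Among 25 genes of heparan sulfate synthesis and sulfation, granuloma called 3 of 18 higher and 2 lower, fibrosarcoma 4 and 4 of 18, and mouse 7 and 3 of 19, with medians of 0.93, -0.20 and 0.93. The polymerase Ext2 rose by 2.42 in granuloma and 1.63 in fibrosarcoma, and Ext1 by 2.29 in fibrosarcoma and 2.28 in mouse. Hs2st1 rose by 1.67 in granuloma and 2.05 in mouse, Xylt1 by 2.35 in fibrosarcoma, and Ndst3 by 5.71 in mouse (153 to 251 against 0 to 27.8). Xylt1 gave 2.71 in granuloma (limma adjusted p 0.0536) and 1.86 in mouse (limma adjusted p 0.0923). Extl1 gave -3.67, -6.81 and -4.07 and was called lower in all 3, as was Hs3st5 at -6.05, -6.00 and -2.54. Hs6st2, a 6-O-sulfotransferase, fell by 6.03 in fibrosarcoma (3.60 to 64.6 against 1039 to 1230) and rose by 2.80 in mouse (394 to 1138 against 46.4 to 125). The interaction with species is not reported for this gene here. Of 9 other genes of heparan sulfate degradation, granuloma and fibrosarcoma called 3 of 8 higher and 0 lower, and mouse 1 of 9 each way (0 lower with the animal as a block), with medians of 1.11, 0.93 and 0.52. Glb1 rose by 2.30, 1.70 and 3.24 in granuloma, fibrosarcoma and mouse, and Idua fell by 1.14 in mouse. Scaling by total reads raised the median of all genes to 0.72, 0.83 and 1.16, where 22.9%, 35.2% and 49.6% of all genes were called higher, and with it more genes of most lists were called higher too. In mouse these were 15 of 19 for synthesis and 8 of 9 for degradation, in granuloma 8 of 18 and 5 of 8, and of the core proteins 7 of 13 in both granuloma and fibrosarcoma. Precursor genes were then called higher in 4, 4 and 5 of 8, and genes of other hyaluronan degradation in 3, 4 and 4 of 4.

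The genes whose pattern over libraries was most like each of these genes were found among 11284 genes with a mean of at least 10 in both tables, by the lower of the Pearson correlations of log2(value + 1) over the 16 Spalax and the 9 mouse libraries. The libraries fall into tumor and muscle, and paired sides share an animal, so these values describe that split and have no test. The closest were Basp1 and Mb21d1 for Has2 (both 0.97), Arl4c and Mtfr2 for Cd44 (both 0.97), Col18a1 and Slc41a2 for Cemip (both 0.95), and Sptlc2 (0.95) and Frmd6 (0.93) for Hpse. Has1 came closest to Pdia5 and Slc2a13 (both 0.89). Lower values were reached by Hyal1 with Ccr10 (0.83) and Mpp7 (0.81), Hyal2 with Id3 (0.81) and Ano8 (0.77), and Has3 with Fam131c (0.73) and Ushbp1 (0.71). Hyal3 and Hpse2 were too low to enter.

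In the mouse genome (GRCm38, GENCODE vM21) the synthases lie apart, Has1 at chr17:17843323-17855205, Has2 at chr15:56665627-56694539 and Has3 at chr8:106870242-106884566. The hyaluronidases form a cluster on chromosome 9, with Hyal2 at 107567945-107572779, Hyal1 at 107576927-107581710 and Hyal3 at 107580818-107587359, all on the plus strand, so Hyal1 and Hyal3 overlap. Cemip lies at chr7:83932857-84086502, Cd44 at chr2:102811141-102901665, Hpse at chr5:100679484-100719716 and Hpse2 at chr19:42786539-43388355. On the opposite strand Has2os covers 4.3% of the Has2 exon bases and Chtf8 5.52% of those of Has3. The libraries are stranded, but the strand setting of the counting is not given in the sources used here. Spalax coordinates were not used here.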

How the data were processed

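Total RNA of neck tissue was sequenced as strand-specific single-end libraries. The authors trimmed reads with Trimmomatic, aligned them with TopHat2 (TopHat 1.4.1 and GRCm38 in the submitters' processing notes) to a Spalax or mouse genome and counted them with htseq-count. The deposited signal per gene is the read count divided by 1 size factor per library. In all libraries 100% of values were whole multiples of the smallest (tolerance 0.1 read), so reads were recovered. In Spalax 2387 gene names hold a comma where a t would stand, and these were read as t. Another 0 columns of sample values were left out.

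Genes that reached 10 in a number of libraries equal to the smaller group were tested with limma 3.58.1 in R 4.3.3 (lmFit, eBayes with trend) on log2(value + 1), adjusted by Benjamini-Hochberg over all genes. Alternatives were edgeR 4.0.16, DESeq2 1.42.0, genes called by both, total-read scaling, a pseudocount of 0.1, no filter, 1 model over all libraries, the animal as a block, and leaving out each library. The script was tested on simulated data. Figures were drawn with matplotlib 3.10.9.

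IS and UIS libraries of an animal are paired by its number in the labels, although the description of the granuloma UIS of 976 also carries a library name with another number. Deviations of such pairs from their group means correlated at 0.009 in granuloma, -0.002 in fibrosarcoma and 0.117 in mouse. The 25 replicate pairs had a chi-square per degree of freedom of at least 45.0, so no library was a copy of another in its group. Pairs across groups were not compared.

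The 10 genes, the pathway and marker lists and the tests were chosen with earlier results of these data known. From each pathway list and tumor contrast up to 2 called genes per direction were named, those of largest fold whose libraries did not overlap. Some genes that this rule selects are not reported here.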

Additional observations from a re-analysis of the deposited data

Results flagged for a closer look

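Within groups of 4 libraries, a library was singled out when its gap to the nearest other one exceeded Dixon's limit of the group's range, which chance gives for about 1 in 20 groups. Of 20 groups tested (10 genes in Spalax control and tolerant), 4 were singled out. These groups share libraries and are not independent, so their count cannot be set against that rate. In 3 it was tolerant 2251, a male at 18 months like 2261, with 36.8 for Has1, 26.3 for Cemip and 4113 for Cd44. The fibroblast, macrophage and mast cell marker sums of that library (186713, 22113 and 665) also lay above those of the other 3 tolerant libraries (up to 43414, 6837 and 125). So did its sums for keratinocyte and skin (3364 against up to 1213), lymphatic endothelium (735 against up to 303) and cartilage (122 against up to 60.8). Its muscle sum (805654 against 1773103 or more) and platelet sum (310 against 732 or more) lay below. The part of these differences in the gene values was not tested. The fourth was Hpse2 in control 1075 at 0.899, which is 1 read where the other 3 controls had none. Such a pattern always passes the limit, as the gap equals the range.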

How the results depend on the processing

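Of the counts of called genes, those of both Spalax tumors together, mouse IS against UIS and tumor IS against tolerant stayed within 1.5 times under every alternative. DESeq2 called 5 genes in granuloma (limma 3), and 2 where limma called 0, in mouse UIS against control and in the species interaction; 1 model over all libraries called 1 in the latter. Leaving out libraries gave 0 to 3 in granuloma and 0 to 8 in fibrosarcoma. The replicate block called 4 in granuloma, 5 in fibrosarcoma, 7 in both tumors and 5 in mouse, and beside the calls named above it changed none of the 10 genes.

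Sign changes concerned genes without a call. Total-read scaling gave Hyal2 0.17 in fibrosarcoma, 0.69 in both tumors and 0.13 in tumor IS against tolerant, Has3 0.74 in mouse, Cd44 -0.01 in mouse UIS against control, Has1 -0.11 in the species interaction, and in tolerant against control Hyal1 0.07 and Hpse 0.00. In that comparison Hyal1 was 0.02 by edgeR and 0.01 by DESeq2. EdgeR gave Has2 0.92 in mouse UIS against control. Has1 in the tumor type interaction was 1.61 (edgeR) and 1.68 (DESeq2), Has2 there -0.04 with a pseudocount of 0.1, and Has2 in the species interaction 1.28 and 1.31.

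Without 1 library each, ranges that crossed 0 were -0.29 to 0.12 for Hyal2 in both tumors, -0.05 to 0.47 for Hyal1 in mouse, and -0.64 to 0.31 for Has2 in Spalax UIS against control. In tolerant against control they were -0.69 to 0.79 (Has2), -0.19 to 0.09 (Hyal1), -0.43 to 0.80 (Cd44) and -0.57 to 0.17 (Hpse). In mouse UIS against control they were -2.39 to 0.11 (Has2) and -0.35 to 0.98 (Cd44). In the tumor type interaction they were -3.41 to 2.34 (Has1), -1.37 to 1.46 (Has2), -1.16 to 0.01 (Hyal1) and -0.68 to 1.26 (Cd44), and in the species interaction -2.75 to 3.01 (Has1), -2.14 to 0.36 (Has2), -1.72 to 0.23 (Cd44) and -0.16 to 1.15 (Hpse). Depth limits Hyal3 and Hpse2 in all libraries, and Cemip and Has1 in muscle. The cause of the other changes was not tested.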
